A study of Mus musculus with 11 samples.

Results

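The H3K4me3 peaks of young quiescent and activated muscle satellite cells were compared, site by site, to see which were kept, lost or gained on activation. All 24701 peaks of the quiescent satellite cell (QSC) list and all 32846 peaks of the activated satellite cell (ASC) list were used, 57547 of the 212879 peaks in the 8 lists of the series. A peak was called kept where it shared at least 1 bp with a peak of the other list. A QSC peak without such a counterpart was called lost, and an ASC peak without one was called gained.

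Both groups were male C57BL/6 mice aged 2 to 3 months, and the cells were sorted by FACS from hindlimb muscle as VCAM+/CD31-/CD45-/Sca1-. QSCs came from uninjured muscle. Per the sample labels, ASCs were sorted QSCs that were then grown for 3 days on an extracellular matrix coating in F10 medium with horse serum, whereas the paper describes SCs activated in vivo by injury and crosslinked straight after sorting. The 2 accounts cannot be told apart from the peak lists. Sorted cells were stored until enough had been collected, so a library may pool animals. Each cell state had 1 H3K4me3 library, made by chromatin immunoprecipitation and sequencing (ChIP-seq), and no replicate. How deeply each library was sequenced is not known from the lists. The cell states were therefore compared without a test, and each share carries a Wilson 95% interval, which covers only the error of counting. Positions are in mm9, the build that the submitters' processing notes name. Positions of genes in mm9 were not used here, so the sorted cell type was not checked against marker genes and no peak is tied to a gene.

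Satellite cells are the stem cells of skeletal muscle. They lie quiescent under the basal lamina of the muscle fiber and enter the cell cycle when the muscle is injured. H3K4me3 is placed on histone H3 by the SET1 and MLL methyltransferases and marks the start sites of genes that are active or poised for transcription. H3K27me3 is placed by Polycomb complexes and marks silent genes, and the 2 marks together form a bivalent domain. H3K36me3 is laid down over the bodies of transcribed genes as RNA polymerase elongates.

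Peaks that differed between the states were mostly the low-scoring ones. The score is that of the authors' peak caller, on a scale where 50 stands for a p-value of 1e-05, 100 for 1e-10 and 1000 for 1e-100, and where many peaks tie at 3100. It depends on the depth of each library, so a score class of the QSC list and the same class of the ASC list need not hold peaks of equal strength. Lost peaks made up 21.4% of the QSC list (5297 peaks, interval 20.9% to 22.0%). Gained peaks made up 41.3% of the ASC list (13557 peaks, interval 40.7% to 41.8%).

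Both shares fell at each step up the score scale. In the QSC list, 72.2% of peaks scoring 50 to 60 were lost, 53.9% of those scoring 75 to 100, 12.3% of those scoring 200 to 500 and 1.53% of those scoring 500 to 1000. In the ASC list the shares gained in the same classes were 86.7%, 82.5%, 48.3% and 20.7%. In each of these classes the share gained was above the share lost, with the limit on comparing scores between lists given above.

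**Figure D1:**
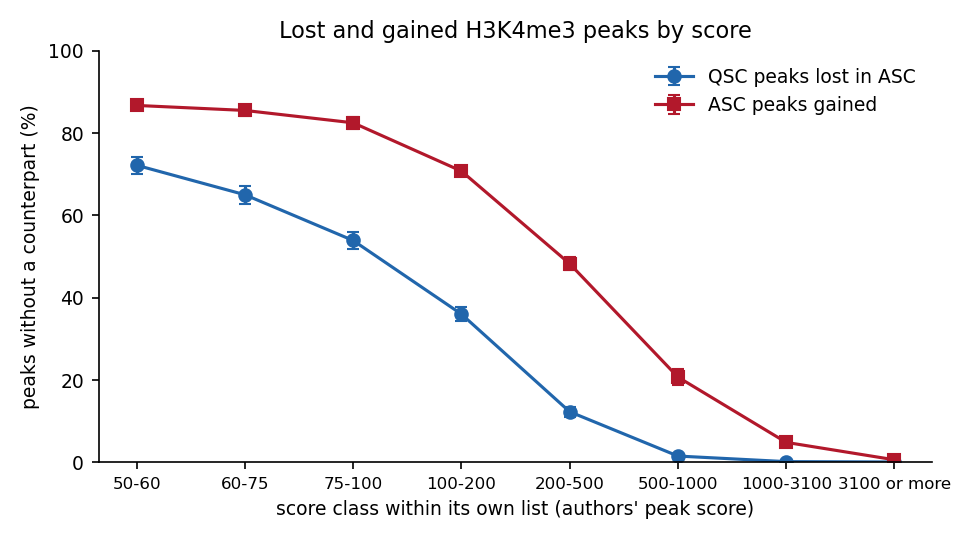
Share of peaks without a counterpart in the other list (vertical axis, percent) by score class within the peak's own list (horizontal axis), for QSC peaks lost in ASCs (circles) and ASC peaks gained (squares), with Wilson 95% intervals. Both shares fell with the score, from 72.2% to 0.0851% of QSC peaks and from 86.7% to 0.617% of ASC peaks.

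Among peaks scoring at least 100, 8.1% of QSC peaks were lost (1520 of 18768) and 24.7% of ASC peaks were gained (5897 of 23839). Among those scoring at least 1000, 0.142% of QSC peaks were lost (15 of 10534, interval 0.0863% to 0.235%) and 1.56% of ASC peaks were gained (209 of 13360, interval 1.37% to 1.79%). The strongest sites of either state were thus nearly all present in the other. Peaks scoring at least 1000 made up 54.2% of kept QSC peaks and 0.283% of lost ones, and 68.2% of kept ASC peaks and 1.54% of gained ones. When the longer ASC list was limited to as many top-scoring peaks as the QSC list held, 25.2% of QSC peaks were lost and 26.6% of ASC peaks were gained. With equal list lengths and mostly one-to-one matches, the 2 shares are bound to be close, so nothing is read from their likeness.

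H3K4me3 of old QSCs (22 to 24 months, 24453 peaks) gave the same values for 2 libraries of quiescent cells. This comparison shares the young QSC list with the one above. Absent from old QSCs were 19.5% of young QSC peaks, and absent from young QSCs were 19.5% of old QSC peaks. For peaks scoring 100 to 1000, 14.0% of young QSC peaks were absent from old QSCs and 18.3% were absent from ASCs. Of ASC peaks in that class, 54.3% were absent from young QSCs, beside 13.3% of old QSC peaks. At scores of at least 1000, 13 young QSC peaks were absent from old QSCs and 15 from ASCs. Of the 11291 old QSC peaks in that class, 0 were absent from young QSCs, with an upper limit of 0.0340%. The number of strong lost peaks was thus about that seen between the 2 quiescent libraries, while strong gained peaks had no counterpart there. The counts of 15 and 13 are not separate, however. Only 6 of the 15 met H3K4me3 of old QSCs, and the rest were absent from both other libraries. Age, cell state and library cannot be told apart in these values.

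Lost and gained peaks were narrow. Lost peaks had a median width of 803 bp (quartiles 667 and 984 bp) and kept QSC peaks 1551 bp (1143 and 2028 bp). Gained peaks had a median of 699 bp (533 and 941 bp) and kept ASC peaks 1722 bp (1131 and 2457 bp). The smallest peaks were nearly all in the ASC list, which held 2759 peaks under 500 bp against 195 in the QSC list, and 85.5% of those ASC peaks were gained.

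**Figure D2:**
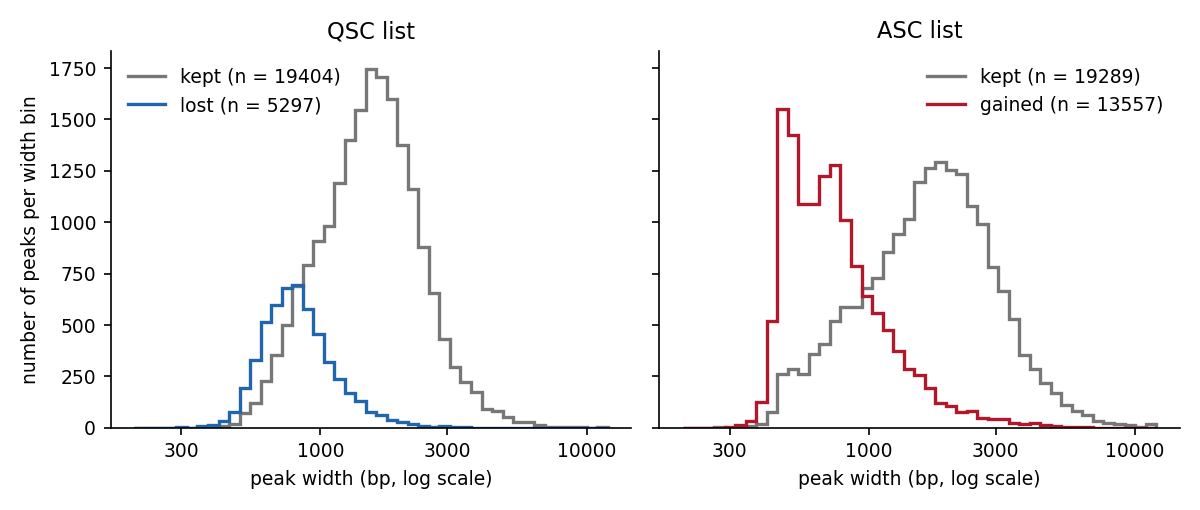
Number of peaks per width bin (vertical axis) against peak width in bp on a log scale (horizontal axis) for kept and lost peaks of the QSC list (left) and kept and gained peaks of the ASC list (right). Peaks wider than the axis are counted in its last bin. The lost peaks lie around 803 bp and the gained ones around 699 bp, left of the kept peaks of their lists.

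Width and score rise together in such lists, so the shares were also read within score classes. Between scores of 100 and 1000, the share lost fell from 29.7% of QSC peaks 500 to 1000 bp wide to 13.9% of those 1 to 2 kb wide and 10.0% of those over 3 kb (6 of 60). The share gained in that class stayed between 50.5% and 61.9% over all width bins. At scores of at least 1000 the order turned for gained peaks. The share gained there was 0.528% of peaks 1 to 2 kb wide, 1.12% of those 2 to 3 kb wide and 4.39% of those over 3 kb (interval 3.70% to 5.20%). Of the 209 gained peaks in that class, 127 were wider than 3 kb and 64 were tied at 3100 or above. The median width of gained peaks thus rose from 699 bp at any score to 3225 bp at scores of at least 1000.

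In base pairs, the lists shared 29.9 Mb, which was 79.9% of the QSC total and 60.8% of the ASC total. The unshared part of the QSC total was 4.63 Mb in lost peaks and 2.88 Mb in the rest of kept peaks. That of the ASC total was 11.5 Mb in gained peaks and 7.84 Mb in the rest of kept peaks. Of all unshared sequence in ASCs, much therefore lay at the margins of sites that QSCs already carried. Few sites were close to the limit of the rule. Of kept peaks, 29 in QSCs and 94 in ASCs shared at most 100 bp with the other list, and 52 lost and 139 gained peaks lay within 100 bp of one.

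Sites present in both states were wider in ASCs where H3K4me3 was strong. At 17567 sites exactly 1 QSC peak met exactly 1 ASC peak. The QSC peaks there had a median width of 1553 bp and the ASC peaks 1726 bp, the median difference was 124 bp (interval 117 to 133 bp), and 61.6% were wider in ASCs. Where the QSC score was at least 1000, the median went from 1881 to 2214.5 bp, a median difference of 289 bp (interval 277 to 302 bp), and 73.5% of 9832 sites were wider. At QSC scores of 100 to 1000 the median difference was -37.5 bp (interval -49 to -30 bp), so widening was not seen there. Grouped by the ASC score instead, the median difference was 262 bp at scores of at least 1000 and -290 bp at scores under 100. The width at which a peak is called can also depend on the library, and its depth is unknown. Cell state and library therefore cannot be told apart in these width differences.

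At least 1.5-fold wider in ASCs were 2373 of these sites, or 13.5%, and at least 1.5-fold narrower were 1175, or 6.69%. Between old and young QSCs, at 18717 such sites, the shares were 4.18% and 2.05%, the median difference was 85 bp, and 66.1% were wider in old QSCs. At QSC scores of at least 1000, 68.8% of 10090 sites were wider in old QSCs, by a median of 93 bp. The share of sites that were wider was thus of like size in both comparisons, while the median difference and the 1.5-fold share of strong sites were larger in ASCs. In that class, 14.8% were 1.5-fold wider and 1.38% narrower in ASCs, beside 0.971% and 0.367% in old QSCs. Across the one-to-one sites of QSCs and ASCs, Spearman's rho was 0.845 for scores and 0.788 for widths. Both are descriptions over sites of the same 2 libraries, and the first compares ranks only.

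Strong widening was mostly at 1 end. Of the sites that were 1.5-fold wider, 77.4% had moved by over 500 bp at 1 end and 11.9% at both. Of the narrower ones, 43.9% had moved that far at 1 end, 2.98% at both and 53.1% at neither. Over all sites the ends moved alike, by a median of 35 bp outward at the end with the lower coordinate and 34 bp at the other. The peaks carry no strand, so which end faced a gene was not determined.

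Width change differed with H3K27me3, the Polycomb mark. At the 12848 one-to-one sites whose QSC peak met no H3K27me3 peak of either state, ASC peaks were wider by a median of 258 bp (interval 247 to 269 bp). At 1889 sites with H3K27me3 in ASCs only, the median difference was -141 bp (interval -158 to -127 bp). At 2714 sites with it in both states, the median difference was -98 bp (interval -113 to -87 bp). Over all scores, sites without H3K27me3 were thus wider in ASCs while those that carried it in ASCs were narrower. The intervals do not overlap, but they cover only the spread over sites, not that between libraries. At 116 sites with H3K27me3 in QSCs only, the median difference was 308.5 bp (interval 134 to 495 bp).

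The same order was seen at QSC scores of 100 and above. At QSC scores of at least 1000, 83.9% of sites without H3K27me3 were wider in ASCs, with a median difference of 391 bp (n = 7905). With H3K27me3 in ASCs only, 28.4% were wider and the median difference was -149 bp (n = 821). With it in both states, 29.3% were wider and the median difference was -128.5 bp (n = 1050). The 56 sites with it in QSCs only were like those without it, with a median difference of 481 bp. At QSC scores of 100 to 1000 the medians of these 4 groups were 43, -147.5, -95 and 125 bp in the same order. At scores under 100 the difference was smaller, with 38 bp without H3K27me3 (interval 17 to 58 bp), -102 bp with it in ASCs only (interval -142 to -67 bp) and 6 bp with it in both states (interval -37 to 45 bp), so sites with the mark in both states were not narrower there. The mark was read from 1 library per state, so H3K27me3 in ASCs cannot be told apart from that library.

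**Figure D3:**
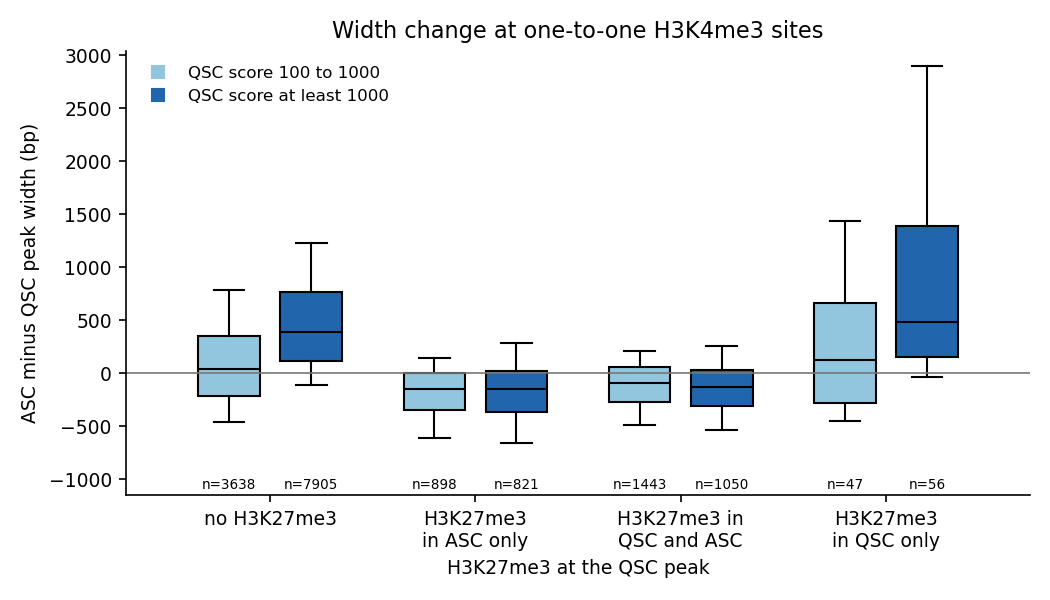
ASC minus QSC peak width in bp (vertical axis) at one-to-one sites, grouped by H3K27me3 at the QSC peak (horizontal axis) and by QSC score (light and dark boxes). Boxes give the median and quartiles and whiskers the 10th and 90th percentiles. At QSC scores of at least 1000 the median is 391 bp without H3K27me3 and -149 bp with H3K27me3 in ASCs only.

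Width change was also read by H3K36me3. The median difference was 264 bp at 272 sites with H3K36me3 in ASCs only (interval 151 to 381 bp) and -101 bp at 786 sites with it in QSCs only (interval -133 to -69 bp). It was -47 bp at 423 sites with the mark in both states and 139 bp at 16086 sites with it in neither. The order was the same at QSC scores of at least 1000. There the medians were 424 bp with the mark in ASCs only (n = 179), 304 bp in neither, 95 bp in both and -52 bp in QSCs only. Under 100 the medians were 82, 26, -100 and -136.5 bp in that order, with only 27 sites in the first group (interval -159 to 554 bp). At scores of 100 to 1000 the order was not seen. There the median difference was -161 bp with the mark in ASCs only (n = 66, interval -310 to -72 bp) and -165 bp with it in QSCs only. It was -269 bp with the mark in both states (n = 143, interval -377 to -173 bp) and -29 bp with it in neither.

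The 3 sites that widened most all overlapped H3K36me3 of ASCs, which was not typical of widened sites. Of the 2373 sites that were 1.5-fold wider, 2237 met no H3K36me3 of either state and 45 met it in ASCs only. The 1.5-fold share was 16.5% of the 272 sites with the mark in ASCs only and 13.9% of those with it in neither. The site at chr8:114254818-114256763 was 1946 bp wide in QSCs, 1895 bp in old QSCs and 11921 bp in ASCs, and it moved outward at both ends. The one at chr2:73417837-73418808 was 972 bp wide in QSCs, 1243 bp in old QSCs and 9467 bp in ASCs. The one at chr1:185856665-185859761 was 3097 bp wide in QSCs, 3661 bp in old QSCs and 10700 bp in ASCs. These 3 sites were picked for their width difference between young QSCs and ASCs, so that gap was set by the choice. The old QSC width, which the choice did not use, was close to that of young QSCs at each site. H3K36me3 of ASCs, but not of QSCs, overlapped the QSC peak at all 3.

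The sites that narrowed most went from about 6 kb to about 2 kb. The site at chr15:101096141-101102111 was 5971 bp wide in QSCs, 5580 bp in old QSCs and 1888 bp in ASCs. The one at chr4:122909473-122915510 was 6038 bp wide in QSCs, 5972 bp in old QSCs and 2071 bp in ASCs. The one at chr5:150213884-150219561 was 5678 bp wide in QSCs, 5180 bp in old QSCs and 2253 bp in ASCs. Here too the gap to ASCs was set by the choice of sites, while the old QSC widths, not used for it, were near those of young QSCs. No H3K27me3 peak of either state met any of these 3 QSC peaks.

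A smaller number of sites were split or joined. In QSCs, 562 peaks met at least 2 ASC peaks, and in ASCs 641 peaks met at least 2 QSC peaks. The latter were wide, with a median of 3837 bp against 1957 bp for the former. At least 3 peaks of the other list were met by 27 QSC peaks and 72 ASC peaks. The widest QSC peak, at chr8:126060972-126148729, spanned 87758 bp, met 18 ASC peaks that covered 98.7% of it, and also met H3K27me3 and H3K36me3 peaks of both states, yet no H3K4me3 peak of old QSCs. It stood apart from all other peaks of the list, the next of which was 36744 bp wide.

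Lost peaks lay on H3K36me3 of QSCs far more often than kept ones. Of lost peaks, 32.3% overlapped H3K36me3 of QSCs (interval 31.1% to 33.6%), against 7.60% of kept QSC peaks (interval 7.24% to 7.98%). For H3K36me3 of ASCs the shares were 13.8% and 4.83%. Read the other way, 53.7% of the 3186 QSC peaks on H3K36me3 of QSCs were lost and 16.7% of the 21515 others. The gap was also there within the middle score class, with 55.6% against 12.6% lost at scores of 100 to 1000. At scores of at least 1000, 15 of 783 peaks on H3K36me3 of QSCs were lost and 0 of the 9751 others. All 15 strong lost peaks were therefore on H3K36me3 of QSCs. Both lists are from QSC libraries, and the part of that in the overlap was not tested. Peaks on H3K36me3 of QSCs were also more often absent from old QSCs (43.6%) than the others (15.9%).

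H3K27me3 of QSCs was on 7.15% of lost and 15.8% of kept QSC peaks. H3K27me3 of ASCs was on 28.5% of lost (interval 27.3% to 29.8%) and 25.3% of kept QSC peaks (interval 24.7% to 25.9%). For the latter the order depended on the score, with 27.3% of lost and 19.4% of kept peaks at scores under 100, and 31.3% and 37.0% at scores of 100 to 1000. Of the 15 strong lost peaks, 9 overlapped H3K27me3 of ASCs (60%, interval 35.7% to 80.2%), against 19.1% of kept QSC peaks scoring at least 1000. H3K4me3 of old QSCs met 6 of the 15 (40%), against 99.96% of those kept peaks. Of all lost peaks, 35.9% had an H3K4me3 peak in old QSCs (interval 34.6% to 37.2%), against 92.7% of kept ones. The shares were 52.8% of lost and 97.4% of kept peaks at scores of at least 100. Under 100 they lay closer, at 29.0% and 55.2%. Of lost peaks, 33.2% met none of H3K4me3 of old QSCs, H3K36me3 of QSCs and H3K27me3 of ASCs. The like share of kept peaks is not given here.

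The 5 highest-scoring lost peaks showed this mixture. Those at chr17:13742745-13746276 (3532 bp), chr5:104759428-104761531 (2104 bp) and chr6:29697312-29699307 (1996 bp) were tied at a score of 3100. The nearest ASC H3K4me3 peaks were 68.1, 101.7 and 9.51 kb away. The other two were at chr17:13498677-13499599 (923 bp, score 2233) and chr10:66687377-66689995 (2619 bp, score 2098). Both peaks on chromosome 17 had H3K27me3 in ASCs and H3K4me3 in old QSCs, the one on chromosome 5 had H3K27me3 in ASCs but no H3K4me3 in old QSCs, and the ones on chromosomes 6 and 10 had neither.

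Each of the other marks was on a minority of both gained and kept ASC peaks. Gained peaks overlapped H3K27me3 of ASCs in 4.43% of cases (interval 4.09% to 4.79%), against 25.7% of kept ASC peaks, and H3K27me3 of QSCs in 3.31% against 16.1%. H3K36me3 of ASCs was on 8.98% of gained and 6.80% of kept ASC peaks, and H3K36me3 of QSCs on 5.32% and 8.32%. Gained peaks thus carried H3K27me3 less often than kept ones in both states. An H3K4me3 peak of old QSCs met 7.70% of gained peaks, against 92.7% of kept ones. Of the 209 strong gained peaks, 60 overlapped H3K36me3 of ASCs (28.7%), against 7.20% of kept ASC peaks scoring at least 1000. H3K36me3 of QSCs was on 17 (8.13%), close to the 7.84% of those kept peaks. H3K27me3 of ASCs was on 13 (6.22%, against 22.0%), and H3K4me3 of old QSCs met 29 (13.9%, against 99.4%).

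The widest gained peak, at chrX:166426128-166447176, spanned 21049 bp, was the widest of the whole ASC list, and lay 79.8 kb from the nearest QSC peak. The next were at chr8:15055900-15064754 (8855 bp), chr1:89101193-89108308 (7116 bp), chr2:29522281-29529166 (6886 bp) and chr8:86095582-86102464 (6883 bp). Of these 5, those on chromosome 1 and at the last position given, on chromosome 8, lay 1.39 and 3.74 kb from a QSC peak and overlapped H3K36me3 of ASCs. The other three met no peak of H3K27me3, of H3K36me3 or of H3K4me3 in old QSCs.

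By chromosome, gained peaks were least frequent on the X. On the autosomes the share lost ran from 17.1% on chromosome 19 (interval 14.7% to 19.9%) to 27.3% on chromosome 18 (interval 24.2% to 30.7%). The share gained ran from 38.1% on chromosome 10 (interval 35.7% to 40.5%) to 47.2% on chromosome 18 (interval 44.1% to 50.3%), followed by 46.2% on chromosome 1. The X had 22.4% gained (157 of 702, interval 19.4% to 25.6%), against 41.7% on all autosomes (interval 41.2% to 42.2%). Its share lost was 20.3% at any score, beside 21.5% on the autosomes, but 9.16% (37 of 404, interval 6.72% to 12.4%) beside 18.8% at scores of 100 to 1000. In that class the X was thus low for lost peaks too.

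**Figure D4:**
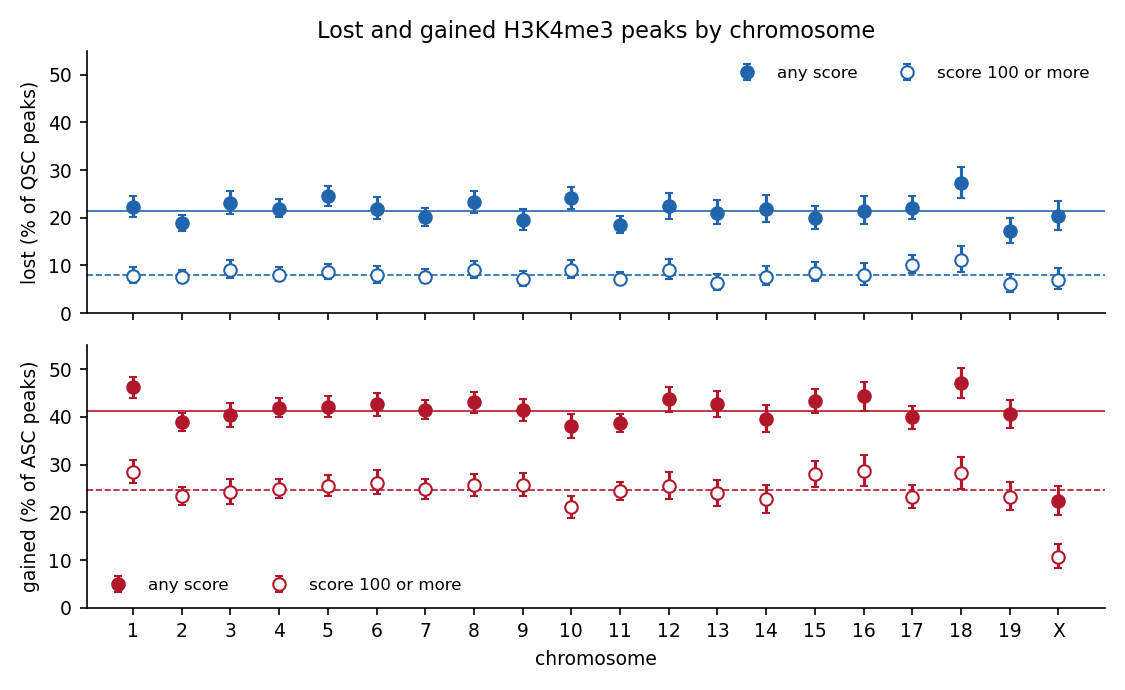
Share of QSC peaks lost (top) and of ASC peaks gained (bottom), in percent, on each autosome and the X, for all peaks (filled) and for those scoring at least 100 (open), with Wilson 95% intervals. Horizontal lines give the share over all chromosomes, solid for all peaks and dashed for scores of at least 100. The X is lowest for gained peaks, at 22.4% and 10.6%.

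The X also differed in the number and score of its peaks. The ASC list held 1.22 (chromosome 10) to 1.44 (chromosome 1) times as many peaks as the QSC list on each autosome, and 1.02 times as many on the X, with 702 against 685. Old QSCs held 862 peaks there. The median score on the X was 360 in QSCs and 1044 in ASCs, whereas on the autosomes it was 606 and 331. At scores of at least 100 the median was 574 and 1565 on the X and 1317 and 1804 on the autosomes, so among these peaks the X was below the autosomes in both lists. The low share gained was also seen within a score class, with 26.4% of X peaks against 54.9% of autosomal ones at scores of 100 to 1000. At scores of at least 1000, 4 of 358 X peaks were gained, or 1.12% (interval 0.435% to 2.84%), and the autosomes with 1.58% lay inside that interval. On the Y the lists held 7 and 4 peaks, too few for a share.

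Gained peaks lay near each other and lost peaks did not. From a gained peak the next gained peak was a median of 7.52 kb away, and 45.1% had one within 5 kb (interval 44.3% to 45.9%). From a lost peak the next lost peak was 89.9 kb away, and 9.89% had one within 5 kb (interval 9.12% to 10.7%). Kept peaks lay in between, at 19.2 kb from the next kept peak in QSCs and 19.5 kb in ASCs. Gained peaks outnumber lost ones, which by itself shortens such distances. The lower quartile of the distance between gained peaks was 0.524 kb. The distances were not repeated with near peaks merged, so pieces of 1 stretch cannot be told apart from separate sites.

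Distances to kept peaks told the 2 classes apart less. Within 5 kb of a kept peak of their own list lay 17.5% of lost peaks (interval 16.5% to 18.5%) and 25.1% of gained peaks (interval 24.4% to 25.8%). Of kept peaks, 24.7% in QSCs and 24.5% in ASCs had another kept peak that near. Gained peaks were thus placed about kept sites much as kept sites were among themselves, and lost peaks were farther away.

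Runs of gained peaks, with gaps of at most 50 kb and no kept ASC peak between them, held most of the gained peaks. Single peaks made up 32.8% of gained peaks and 72.4% of lost ones. Runs of 5 to 9 gained peaks numbered 392 and held 17.7% of them, and 60 runs of 10 or more held a further 787 peaks, or 5.81%. Among lost peaks, 10 runs of 5 to 9 held 62 peaks and 2 longer runs held 27.

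The marks on gained peaks changed with the length of the run. H3K36me3 of ASCs was on 6.30% of single gained peaks, 8.29% in pairs, 9.16% in runs of 3 or 4, 12.9% in runs of 5 to 9 and 14.0% in runs of 10 or more. H3K27me3 of ASCs went the other way, from 8.06% of single gained peaks to 0.635% in runs of 10 or more. The share that met H3K4me3 of old QSCs also fell, from 12.9% to 2.67%. The median score was 81.2 for single peaks and 101.7 in the longest runs.

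The long runs tended to adjoin wide kept peaks. Of 413 runs of at least 5 gained peaks with a kept ASC peak next to them within 50 kb, 53.3% had one wider than 3 kb on either side (interval 48.4% to 58.0%). The share, counted in the same way, was 25.7% for single gained peaks (interval 24.2% to 27.3%). Of all kept ASC peaks, 14.4% were that wide. That share is per peak, whereas a run can have a kept peak on each side, so it is not a like measure. From the side of the kept sites, 28.2% of the 1.5-fold wider one-to-one sites had a gained peak within 5 kb, against 12.2% of sites of similar width and 13.5% of narrower ones. A lost peak lay within 5 kb of 2.49%, 5.11% and 11.9% of them, in the same order. A gained peak was thus most often near the widened sites and a lost peak most often near the narrowed ones, though most sites of every kind had neither.

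The longest run of gained peaks was at chr9:63456040-63598653. It held 34 ASC peaks over 142.6 kb with widths of 423 to 2507 bp and scores of 50.9 to 499.95. The same stretch held 1 QSC peak, 0 old QSC peaks, 23 H3K36me3 peaks in ASCs against 3 in QSCs, and no H3K27me3 peak of either state. Of the 34 gained peaks themselves, 5 overlapped H3K36me3 of ASCs and 0 that of QSCs. The H3K36me3 counts of these stretches were not set against the sizes of the whole lists. All of its peaks were thus of low or middle score, and 17 of 34 were below 100.

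**Figure D5:**
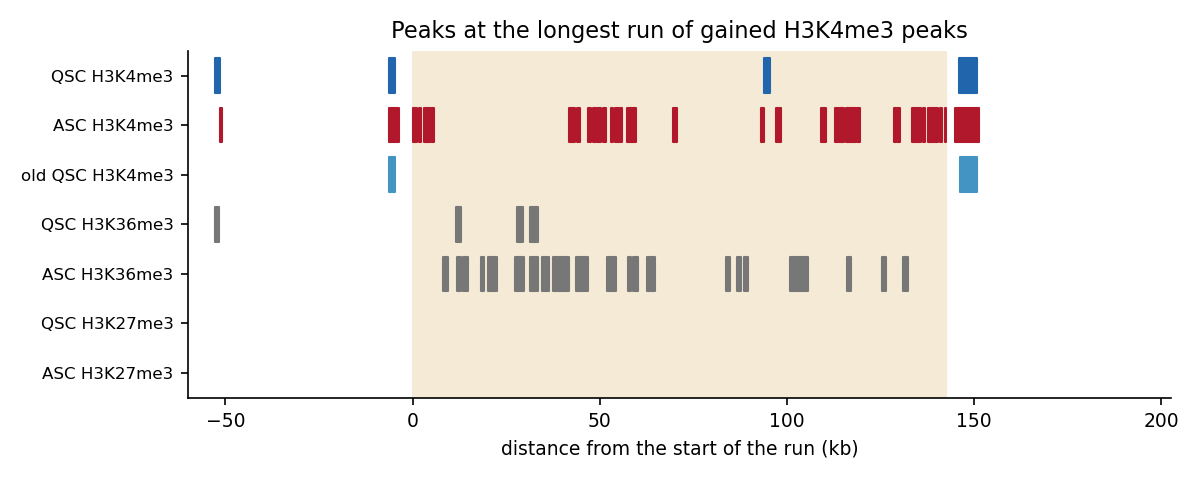
Peaks of 7 lists (rows) against the distance in kb from the start of the longest run of gained peaks (horizontal axis, shaded over the run). Each bar is a peak, drawn to scale. The ASC H3K4me3 row holds 34 peaks within the shading and the QSC row 1, and H3K36me3 peaks number 23 in ASCs and 3 in QSCs.

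The next longest was at chr13:51947240-52332400, with 30 gained peaks over 385.2 kb. Their scores ran from 52.1 to 3035, and 2 were above 1000. The stretch held 8 H3K36me3 peaks in ASCs and 1 in QSCs, and 5 H3K27me3 peaks in QSCs but 0 in ASCs. The run after that, at chr8:124478378-124750582, held 21 gained peaks over 272.2 kb, with 13 H3K36me3 peaks in ASCs and 8 in QSCs. In each of these 2 runs, 2 gained peaks overlapped H3K36me3 of ASCs.

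The longest run of lost peaks differed from these. At chr10:66681580-66718627, 15 QSC peaks with scores of 72.8 to 2098 lay within 37.0 kb, and 3 of the strong lost peaks were among them. All 15 overlapped H3K27me3 of QSCs, H3K36me3 of QSCs and H3K36me3 of ASCs, whereas ASCs and old QSCs held 0 H3K4me3 peaks there. The peak lists of the 3 young QSC marks thus coincided over this stretch. The next run, at chr6:114456873-114552643, held 12 lost peaks with scores of only 52.3 to 70.9 and no peak of the other 6 lists used. The run at chr10:77204249-77364242 held 9 lost peaks, of which 8 overlapped H3K27me3 of ASCs and 3 overlapped H3K4me3 of old QSCs.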

How the data were processed

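ChIP-seq peaks of H3K4me3 in young QSCs and ASCs were analysed, with H3K27me3 and H3K36me3 of the same states and H3K4me3 of old QSCs as further lists (7 of 8 lists). The H3K27me3 list of old QSCs and the 3 input libraries were not used. The authors deposited for each library the position of each peak and a score, called per library against input. The submitters' processing notes name Bowtie, with no version, and mm9. The score follows the MACS scale, the negative log10 of the p-value times 10, as read from the values: the lowest is 50 and many tie at 3100. Duplicate handling is not given in the sources used here. Depth, which is unknown, moves both the score and the number of peaks called: a deeper library can list more weak peaks. It can also move the width at which a peak is called.

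Overlaps (at least 1 bp), gaps, runs and widths were computed in Python 3.11.15 (pandas 2.3.3, numpy 2.4.6), Wilson intervals with scipy 1.17.1, and figures with matplotlib 3.10.9. Median intervals are 95% order-statistic intervals. The functions for overlaps, gaps and runs were run on simulated data with known answers. The counts of overlapping peaks were also checked against bedtools 2.31.1. Start positions are printed 1-based.

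The sites named are the 5 widest gained peaks scoring at least 1000, the 5 highest-scoring lost peaks, the 3 longest runs of each class, and the 3 one-to-one sites that widened and that narrowed most. The sites, lists and measures were chosen with earlier results of these data known. Genes marked at their start sites were not analysed here, since the gene table given is in another build and no coordinates were converted. Alternatives were a higher score, equal list lengths, a stricter or looser overlap, merging of near peaks, autosomes only and other distances.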

Additional observations from a re-analysis of the deposited data

How the results depend on the processing

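Of 36 alternatives, 9 stayed inside the main value's interval (for a run length, within 1.5 times). Shares, widths and run lengths cannot change sign, so only the width differences could turn direction, and none did under the alternatives. The split by QSC score was not among the alternatives, and there the median width difference was -37.5 bp at scores of 100 to 1000. The share of QSC peaks lost was 11.0% with both lists at scores of at least 100, 0.142% for QSC peaks scoring at least 1000, 25.2% with equal numbers of top-scoring peaks, 22.1% with an overlap of 50% of the shorter peak, 19.7% when a peak within 1 kb counted as shared, and 16.7% without peaks on H3K36me3 of QSCs. The share of ASC peaks gained was 30.2%, 1.56%, 26.6%, 42.2% and 37.9% under the first 5 of these, and 35.0% with peaks less than 1 kb apart merged. The median width of lost peaks was 1016 bp at scores of at least 100. That of gained peaks was 969 bp at these scores and 747 bp after merging. Within 1 kb and 10 kb of a kept peak lay 5.87% and 28.1% of lost and 10.7% and 37.6% of gained peaks, and within 5 kb at scores of at least 100 lay 18.7% and 26.8%. The longest run of gained peaks held 18 peaks with gaps of at most 20 kb. At scores of at least 100, old QSCs held 52.8% of lost and 10.8% of gained peaks, the X had 10.6% gained, and the median width difference was 164 bp (150 bp after merging). Leaving out peaks on H3K36me3, the X at higher scores, and H3K27me3 read from the ASC peak, which left the width differences at -141 and 256 bp, were chosen after seeing the data. Genes marked at start sites were not run, and with 1 library per state no replicate could be left out. Library depth, which is unknown, limits every count of weak peaks.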
